A study of Mus musculus with 44 samples.

Results

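Gnb4 encodes a beta subunit of heterotrimeric G proteins, and 7 of 20 BXD mouse strains had a low signal for its messenger RNA in sorted blood-forming stem and progenitor cells. The strains were chosen by the Gnb4 signal itself. A strain was placed in the low class when the mean log2 intensity of the array's only Gnb4 probe set over its 2 arrays lay under 7, and in the high class otherwise. The low class held 7 strains (14 arrays) and the high class 13 strains (26 arrays), out of 22 strains and 44 arrays in all. BXD40 and BXD42 were left out.

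The low class consisted of BXD5, BXD6, BXD9, BXD16, BXD32, BXD33 and BXD39. The high class consisted of BXD1, BXD2, BXD8, BXD11, BXD12, BXD14, BXD18, BXD19, BXD21, BXD28, BXD31, BXD34 and BXD38. All are inbred lines whose founders were DBA/2 mice crossed with the C57BL/6 strain, each homozygous for its own mixture of the parental genomes. Both classes were sampled alike: marrow of 3 female mice, 3 to 6 months old, was pooled per sample, and cells without lineage markers that carried Sca-1 and c-kit were sorted. The labels name no treatment and no genotype at single loci. The Affymetrix MG_U74Av2 array measures 1 sample per array with short probes grouped into probe sets. By their code, the arrays fall into a series called A here, with 3 low and 5 high strains, and another called B, with 4 low and 8 high strains. The strain was the unit of every comparison except a fit of single arrays. No source says whether the 2 arrays of a strain came from separate pools.

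Heterotrimeric G proteins relay signals from seven-helix receptors at the cell surface. An activated receptor makes the alpha subunit exchange GDP for GTP, and the released alpha subunit and beta-gamma dimer each act on effectors such as phospholipase C, ion channels and phosphoinositide 3-kinase gamma. In blood-forming cells this pathway serves chemokine receptors such as CXCR4, which holds stem cells in the marrow. The comparison asked which other messenger RNAs differed between strains with low and high Gnb4, and whether the genes beside Gnb4 on chromosome 3 followed it.

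Gnb4 formed 2 separate ranges of strain means. Among the low strains it averaged 4.86 in BXD5, 5.05 in BXD32, 5.08 in BXD39, 5.80 in BXD16, 5.90 in BXD9, 5.90 in BXD6 and 5.92 in BXD33, on the log2 scale of the deposited intensities. Among the high strains the lowest mean was 7.78 in BXD1, the median 8.29 and the highest 9.45 in BXD12. The nearest strains on either side of the threshold, BXD33 and BXD1, were separated by 1.87. The class mean was 5.50 ± 0.48 (SD, n = 7) in low strains and 8.47 ± 0.57 (SD, n = 13) in high strains, a difference of -2.97. All 7 low means lay under 6.01, the brightness limit of the tests, so no fold is given. These values chose the classes and were not tested. In such bulk samples fewer cells of a type and less RNA per cell cannot be told apart.

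Single arrays followed the same division with 1 exception. Of 14 arrays from low strains, 13 lay under 7, against 0 of 26 from high strains. The exception was BXD9, with 7.10 on one array and 4.69 on the other. BXD16 was similar, with 6.97 and 4.63. The arrays of a low strain differed more from each other (median SD 0.90) than those of a high strain (median SD 0.34). No array of either class was at the floor of 16 that was set for the deposited intensities.

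**Figure D1:**
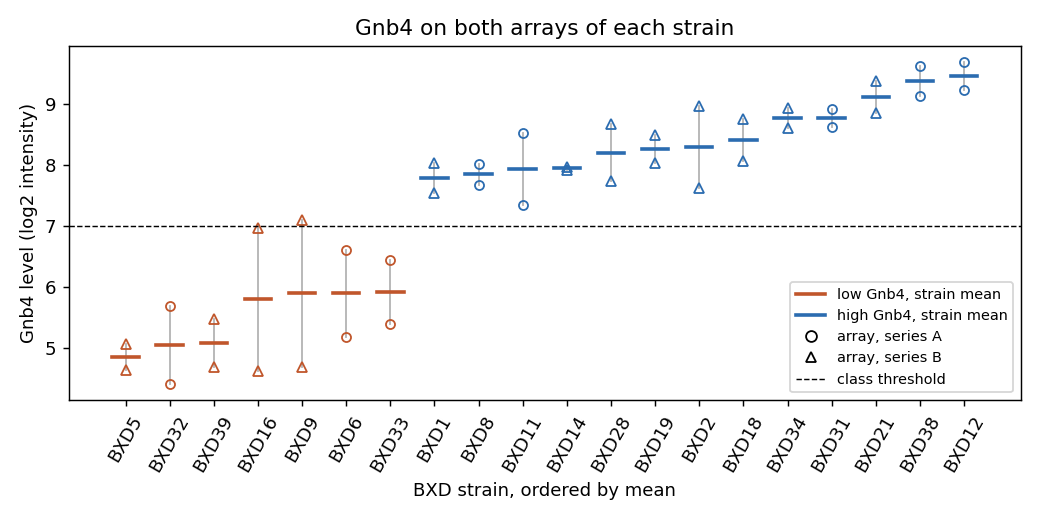
Gnb4 level (log2 of the deposited intensity) on both arrays of 20 BXD strains, ordered by strain mean. Open symbols are arrays, thick bars strain means, grey lines the span of the 2 arrays and the dashed line the threshold of 7; the highest low mean is 5.92 in BXD33 and the lowest high mean 7.78 in BXD1.

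None of the genes next to Gnb4 passed the test between the classes. The 10 tested genes on each side of Gnb4 in the order of chromosome 3 were examined, each by its brightest probe set, after quantile normalization of the arrays. None of these 20 genes passed the test (limma with array series as a covariate, Benjamini-Hochberg adjusted p below 0.05), where 0 of 7452 probe sets (0%) passed. At an unadjusted p under 0.05 there were 0 of the 20 by limma, against 162 of all 5623 genes (2.88%). Over all 7452 probe sets there were 218 (2.93%). A further, dimmer probe set of Mfn1, described below, had an unadjusted limma p of 0.000369. The strain means of the classes separated without overlap in 0 of the 20 genes and in 0 of the 7452 probe sets (0%).

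Differences at the 20 neighbours, low minus high, ran from -0.30 for Plk4 to 0.39 for Ttc14 on the log2 scale, with 9 positive, 11 negative and a median of -0.02. The median size without regard to sign was 0.12, against 0.08 over all 7452 probe sets. The 95% confidence intervals of the 20 differences lay between -0.77 and 0.90.

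On the side before Gnb4, the order away from it was Mfn1, Zfp639, Pik3ca, Zmat3, Cldn11, Prkci, Sec62, Mecom, Ect2 and Tbl1xr1. Zfp639, a zinc finger gene, averaged 6.85 ± 0.58 (SD, n = 7) in low strains and 6.71 ± 0.45 (SD, n = 13) in high strains. Pik3ca, the catalytic subunit of phosphoinositide 3-kinase alpha, ran from 6.35 through a median of 6.75 to 7.32 in low strains and from 5.41 through 6.62 to 7.12 in high strains, a difference of 0.28 with an interval of -0.09 to 0.65. Its other probe set gave 0.01 with an interval of -0.41 to 0.42. Zmat3, a p53 target that encodes an RNA-binding protein, differed by -0.08, and Cldn11, a tight junction claudin, by -0.04. Prkci, an atypical protein kinase C, differed by -0.13. Sec62, a component of protein import into the endoplasmic reticulum, differed by -0.20 with one probe set and by -0.17 with the other.

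Mecom, which encodes the stem cell transcription factor EVI1, stood level in both classes. It averaged 6.46 ± 0.24 (SD, n = 7) in low strains and 6.46 ± 0.25 (SD, n = 13) in high strains, with an interval of the difference from -0.23 to 0.24. Ect2, an exchange factor needed for cytokinesis, averaged 8.68 ± 0.36 in low strains and 8.80 ± 0.43 in high strains. Tbl1xr1, a subunit of nuclear receptor corepressor complexes, differed by -0.11, with an interval of -0.36 to 0.15.

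On the side after Gnb4, the order was Actl6a, Ndufb5, Ttc14, Fxr1, Mccc1, Acad9, Anxa5, Ccna2, Hspa4l and Plk4. Actl6a, an actin-related subunit of BAF chromatin remodelling complexes, averaged 8.05 ± 0.21 (SD, n = 7) in low strains and 8.03 ± 0.22 (SD, n = 13) in high strains. Its difference of 0.03 had an interval of -0.16 to 0.22. Ndufb5, a subunit of respiratory complex I, averaged 11.28 ± 0.14 in low strains and 11.31 ± 0.16 in high strains, with an interval of -0.18 to 0.12. On this side of Gnb4, Actl6a and Ndufb5 thus had narrow intervals around 0. The Ndufb5 probe set, however, carries the Affymetrix suffix f, given to probes that can match related sequences.

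Ttc14, a tetratricopeptide repeat gene, ranged from 6.05 to 7.77 with a median of 7.04 in low strains, and from 5.16 to 7.53 with a median of 6.56 in high strains. Its classes overlapped over most of their span, and the interval of the difference was -0.11 to 0.90. Fxr1, an RNA-binding relative of the fragile X protein, differed by 0.00 with an interval of -0.22 to 0.22. Mccc1 and Acad9, mitochondrial enzymes of leucine breakdown and acyl-CoA dehydrogenation, differed by 0.16 and 0.03. Anxa5, an annexin, differed by -0.01, and the cyclin A2 gene Ccna2 by -0.08. Hspa4l, a heat shock protein of the HSP110 family, differed by -0.26 with an interval of -0.58 to 0.05. Plk4, the kinase that starts centriole duplication, differed by -0.30 with an interval of -0.77 to 0.17. A further 10 genes of the array between Tbl1xr1 and Plk4 were too dim to be tested: Tnfsf10, Pld1, Slc2a2, Mynn, Skil, Sox2, Adad1, Il2, Fgf2 and Spata5.

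**Figure D2:**
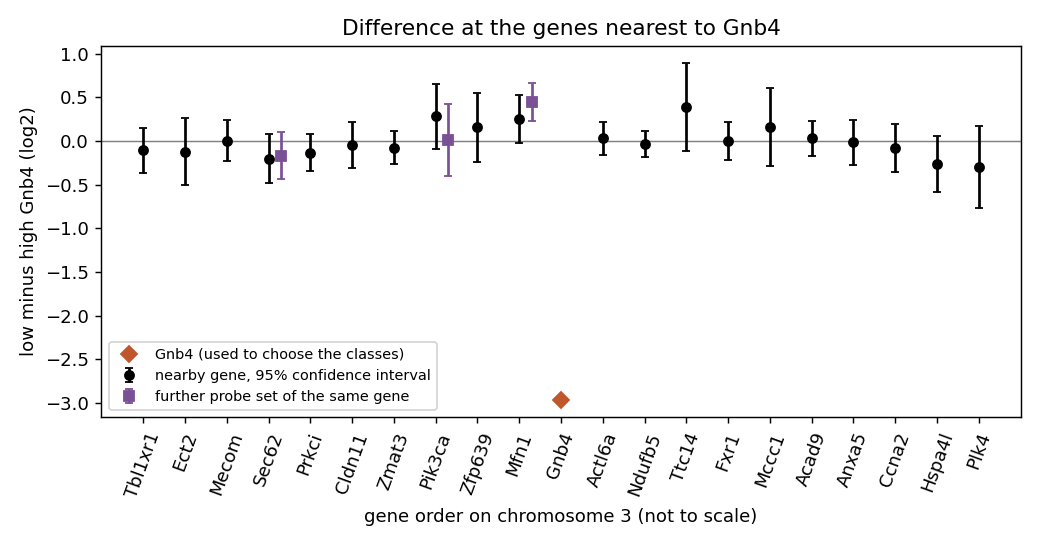
Difference between classes (low minus high Gnb4, log2) at the 10 tested genes on each side of Gnb4, in chromosome order and not to scale. Circles are the brightest probe set of each gene and squares its further probe sets, both with 95% confidence intervals from limma; the diamond is the plain difference of class means at Gnb4, -2.97, which chose the classes, while the 20 circles lie between -0.30 and 0.39.

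Mfn1, the gene next to Gnb4, had 2 tested probe sets, and both were higher on average in the low strains. Mfn1 encodes mitofusin 1, a GTPase that fuses the outer membranes of mitochondria. Its dimmer probe set had 6.98 in BXD16, 7.05 in BXD32, 6.97 in BXD33, 6.57 in BXD39, 6.90 in BXD5, 6.40 in BXD6 and 6.75 in BXD9. In the high strains it ran from 6.03 in BXD19 through a median of 6.46 to 6.66 in BXD14. In this probe set 5 low strains, all but BXD39 and BXD6, lay above every high strain, and the classes overlapped through those 2. Low strains averaged 6.80 ± 0.24 (SD, n = 7) and high strains 6.35 ± 0.22 (SD, n = 13).

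The difference at this Mfn1 probe set was 0.45 ± 0.11 (SE), a 1.36-fold higher level in low strains, opposite in sign to Gnb4. It was second of all 7452 probe sets in the order of limma p-values, and its adjusted p was 1.00. An exact two-sided permutation test of the classes within array series gave p = 0.000938 (27720 arrangements, smallest possible p 3.61e-05), 1 of 5 such tests made on probe sets of the nearest genes. Within series A the exact permutation p was 0.107 with a difference of 0.32, and within series B it was 0.00606 with a difference of 0.53. Its name carries the Affymetrix suffix f, which marks probes that can match related sequences.

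The brighter Mfn1 probe set ran from 6.94 through 7.49 to 7.68 in low strains and from 6.39 through 7.12 to 7.45 in high strains. The classes overlapped, and the difference was 0.25 with an interval of -0.02 to 0.53 (exact permutation p = 0.0756). In series A it was 0.01 and in series B 0.41. Exact permutation p was 0.455 for Zfp639, 0.727 for Actl6a and 0.572 for Ndufb5. Without BXD9 and BXD16, whose Gnb4 arrays disagreed, the difference was 0.39 at the dimmer and 0.11 at the brighter Mfn1 probe set.

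**Figure D3:**
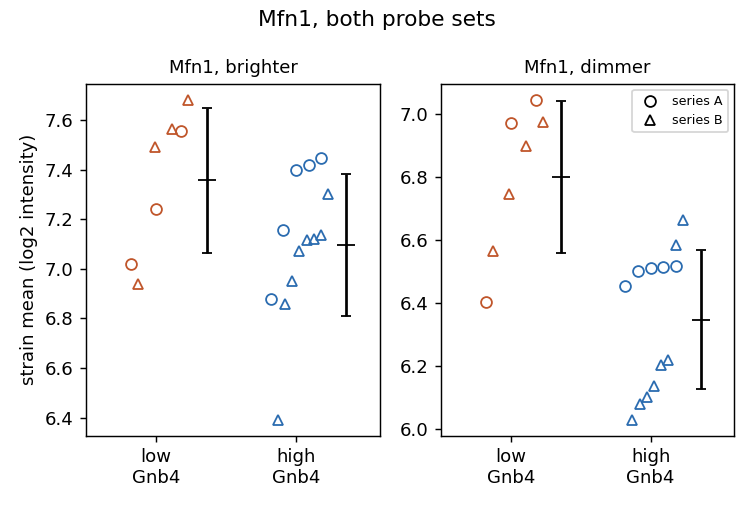
Strain means of both Mfn1 probe sets (log2 intensity, quantile normalized) in low-Gnb4 and high-Gnb4 strains; circles are series A, triangles series B and black marks the class mean ± SD over 7 low and 13 high strains. In the dimmer probe set 5 low strains lie above the highest high strain at 6.66, and in the brighter one the classes overlap.

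Along the rest of chromosome 3 no gene passed the test. Of its 289 tested genes, 26 before Gnb4 and 263 after it, 8 (2.77%) had an unadjusted p under 0.05 by limma, against 162 of all 5623 genes (2.88%). The share on other autosomes and the X ranged from 1.10% to 5.56%. All 8 lay after Gnb4. The nearest were Pgrmc2, a membrane-bound haem-binding protein gene and the 11th tested gene from Gnb4, with a difference of -0.33, and Noct, the nocturnin gene and the 13th, with 0.39. The others were Adam15 at 0.19, Mrpl9 at -0.31, Txnip at -0.49, Larp7 at -0.21, Gm35585 at -0.26 and Hadh at -0.22, at least 91 genes away.

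**Figure D4:**
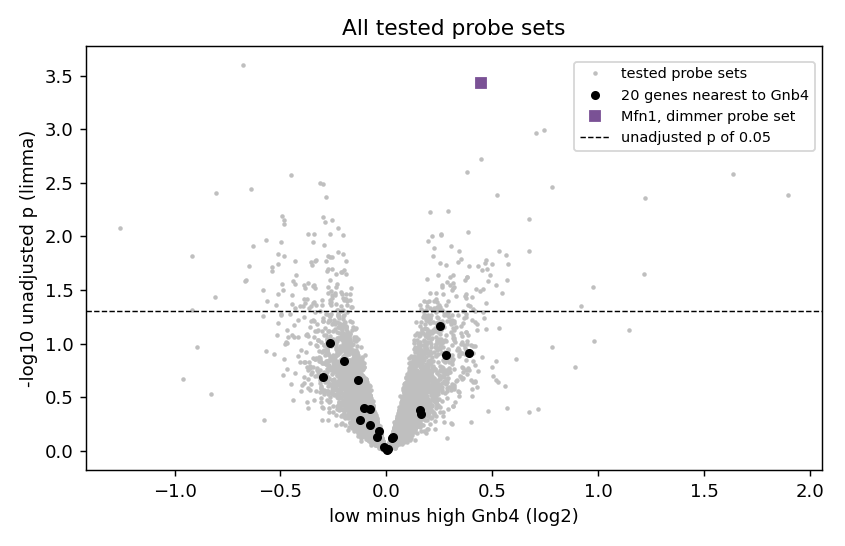
Difference (low minus high Gnb4, log2) against -log10 of the unadjusted limma p for 7452 probe sets, with the 20 nearest genes in black and the dimmer Mfn1 probe set as a square. The 20 black points all lie under the dashed line, the unadjusted limit of 0.05, above which 218 probe sets lie.

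None of the 7452 tested probe sets separated the classes without overlap, and dimmer probe sets were not examined for this. The smallest adjusted p was 1.00 by limma, and 0 passed by an ordinary linear model or by a fit of the 40 single arrays with strain as a random block. The latter fit estimated a correlation of 0.070 between the arrays of a strain, so it treated them nearly as independent. Of the 218 probe sets at an unadjusted p under 0.05, 98 (1.32%) were higher and 120 (1.61%) lower in the low strains.

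Ak3, the adenylate kinase of the mitochondrial matrix, had the smallest p, without passing the test. Its low-strain mean of 5.76 was under the brightness limit of 6.01, so it entered the test through the high strains, where it averaged 6.45. It stood at 5.25 in BXD39, 5.40 in BXD32, 5.62 in BXD6, 5.66 in BXD16, 5.87 in BXD9, 5.91 in BXD33 and 6.64 in BXD5. In high strains it ran from 5.88 in BXD28 through a median of 6.46 to 6.91 in BXD2. BXD5 and BXD33 thus lay within the range of the high strains, while 5 low strains lay under all of them. The difference was -0.68 ± 0.15 (SE, unadjusted limma p = 0.000253, n = 20 strains). It was -0.67 among strains of series A, against -0.68 among those of B.

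Erdr1, named for a role in erythroid differentiation, had the largest difference, 1.90 ± 0.59 (SE, unadjusted limma p = 0.00407, n = 20 strains). All 7 low strains lay between 12.10 and 12.89. The 13 high strains ranged from 8.30 in BXD28 to 12.70 in BXD2, with a median of 11.21. High levels of Erdr1 therefore occurred in both classes, and levels under 12.10 in high-Gnb4 strains alone. BXD8, BXD14, BXD18, BXD28 and BXD31 were under 9.2. Its probe set also carries the suffix f.

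Hnrnpu, a nuclear RNA-binding scaffold protein, was at 7.79 ± 0.35 (SD, n = 7) in low strains and 7.12 ± 0.71 (SD, n = 13) in high strains, a difference of 0.71 that was 1.19 in series A and 0.37 in series B. Larp1, which binds messenger RNAs of the translation machinery, averaged 8.73 ± 0.25 in low strains and 8.28 ± 0.28 in high strains. Csn3, the kappa-casein gene, averaged 7.15 ± 0.22 in low strains and 6.78 ± 0.24 in high strains. The remaining genes with higher means in low strains were the homeobox gene Barx1 (difference 0.78), the glycan-branching enzyme gene Gcnt2 (0.52), AI506816 (1.22), the choline transporter-like gene Slc44a2 (0.21), the lectin-like receptor gene Klrb1a (0.39) and the WD repeat gene Tbl3 (0.26). Gcnt2, with 6.33 in low strains and 5.84 in high strains, and Klrb1a, with 6.29 in low strains and 5.91 in high strains, entered the test through the low strains, since their high-strain means were under the brightness limit.

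After Ak3, the genes with lower means in low strains began with Atp5mpl and Mrpl9. Atp5mpl, a small protein of the ATP synthase, averaged 8.65 ± 0.35 (SD, n = 7) in low strains and 9.12 ± 0.32 (SD, n = 13) in high strains. Mrpl9, of the mitochondrial ribosome, averaged 7.60 ± 0.18 in low strains and 7.91 ± 0.20 in high strains. Thbd, the thrombomodulin gene, averaged 6.78 ± 0.40 in low strains and 7.27 ± 0.34 in high strains, with a difference of -0.98 in series A, against -0.15 in B. The others were Tprgl (-0.30), the scaffold gene Tanc1 (-0.64), the RNA-binding genes Rbm38 (-0.28) and Samd4b (-0.48), the antizyme gene Oaz2 (-0.30) and the predicted gene Gm35585 (-0.26).

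**Figure D5:**
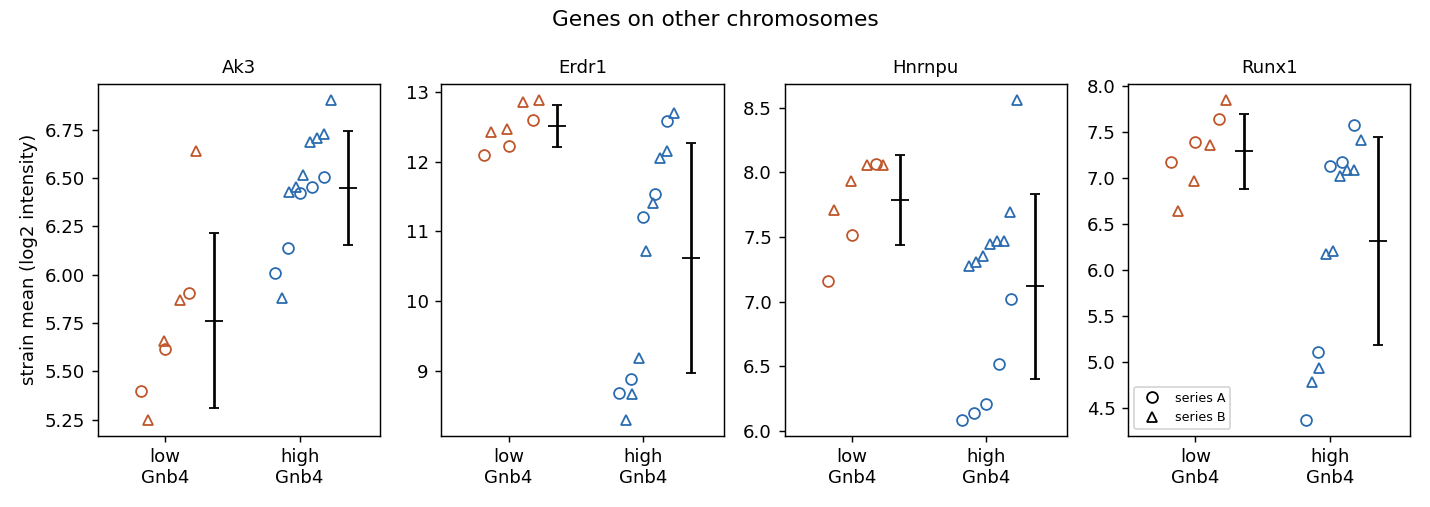
Strain means (log2 intensity, quantile normalized) of Ak3, Erdr1, Hnrnpu and Runx1 in low-Gnb4 and high-Gnb4 strains; circles are series A, triangles series B and black marks the class mean ± SD. Erdr1 is between 12.10 and 12.89 in the 7 low strains and between 8.30 and 12.70 in the 13 high strains.

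No other tested beta subunit gene separated the classes. Of 4 on the array, 3 were bright enough to be tested and none passed. Gnb1, the most widely expressed beta subunit, averaged 8.47 ± 0.23 (SD, n = 7) in low strains and 8.65 ± 0.29 (SD, n = 13) in high strains. The interval of its difference was -0.43 to 0.08. Its other probe sets gave 0.40, with an interval of -0.02 to 0.83, and 0.03, with an interval of -0.22 to 0.28. Gnb2 averaged 8.16 ± 0.42 in low strains and 8.43 ± 0.41 in high strains, an interval of -0.64 to 0.13, and its difference was 0.18 in series A and -0.57 in series B. Gnb5, the divergent beta subunit that pairs with RGS proteins, differed by -0.06, with an interval of -0.29 to 0.16.

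Gamma and alpha subunits, the partners of beta subunits, gave small differences in both directions. None of 6 gamma subunit genes passed, with differences from -0.22 for Gng11 to 0.17 for Gng4 and a median of -0.02, against -0.01 over all 7452 probe sets. Gng12, a gamma subunit, averaged 9.38 ± 0.34 (SD, n = 7) in low strains and 9.33 ± 0.23 (SD, n = 13) in high strains. None of 7 alpha subunit genes passed, with differences between -0.13 and 0.10. Gnai2, the inhibitory alpha subunit used by chemokine receptors, averaged 12.74 ± 0.14 in low strains and 12.75 ± 0.19 in high strains, with an interval of -0.19 to 0.16.

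Among 13 regulators and effectors of G proteins none passed, and 1 had an unadjusted p under 0.05, against 2.88% of all 5623 genes. This was Rgs16, which speeds GTP hydrolysis by alpha subunits, with 7.86 ± 0.32 (SD, n = 7) in low strains and 8.08 ± 0.16 (SD, n = 13) in high strains. Its difference of -0.21 (unadjusted limma p = 0.0215, n = 20 strains) was -0.42 in series A and -0.06 in series B. Arrb1, the beta-arrestin 1 gene, differed by -0.20, and Ric8a, a chaperone of alpha subunits, by 0.14. Of 13 G protein-coupled receptors none passed, and 0 had an unadjusted p under 0.05 by limma, against 2.88% of all 5623 genes. The chemokine receptor gene Ccr2 ran from 6.56 through 9.16 to 10.57 in low strains and from 5.80 through 6.92 to 10.52 in high strains. Its difference of 1.15 had an interval of -0.12 to 2.41. Cxcr4 differed by -0.05, with an interval of -0.34 to 0.25.

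Of Sca-1 and c-kit, which the sorted cells had to carry, only the message of c-kit was tested here. Kit, which encodes it, averaged 9.45 ± 0.44 (SD, n = 7) in low strains and 9.49 ± 0.38 (SD, n = 13) in high strains, and Cd34, of progenitor cells but not used in the sort, averaged 8.71 ± 0.28 in low strains and 8.75 ± 0.25 in high strains. Ly6a, which encodes Sca-1, was not analysed here. Cd3e (mean 5.35 over the arrays used), Itgam (4.44) and Ly6g (5.77), markers of T cells and myeloid cells, were under the brightness limit of 6.01. Other markers of these cells were above it: Cd3g averaged 7.07 in low strains and 7.09 in high strains, Cd4 7.15 in low strains and 7.17 in high strains, and the neutrophil gene S100a8 10.92 in low strains and 10.99 in high strains. In all, 8 of 13 T and NK cell markers and 14 of 18 neutrophil and monocyte markers on the array were bright enough to be tested. The limit, set at the 40th percentile, left 7452 of all 12422 probe sets to test. Of 11 surface molecules of stem and progenitor cells none passed, and Cd27, a receptor of the tumour necrosis factor family, had the smallest p, with a difference of 0.32 and an interval of -0.05 to 0.68.

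Of 20 stem and progenitor transcription factors none passed, and 2 had an unadjusted p under 0.05, against 2.88% of all genes. Runx1, a master regulator of blood stem cell formation, ranged from 6.64 in BXD16 to 7.86 in BXD5, with a median of 7.36, in low strains. In high strains it ranged from 4.38 in BXD11 to 7.58 in BXD8, with a median of 7.03, and BXD11, BXD19, BXD34 and BXD38 were under 5.2. The classes overlapped in their upper part. The difference was 0.97 ± 0.42 (SE, unadjusted limma p = 0.0297, n = 20 strains), 1.13 in series A and 0.87 in series B. Cebpb, a factor of myeloid cells, differed by -0.66, but by 0.20 in series A and -1.28 in series B.

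Other programmes showed no passing gene either. Of 26 cell cycle genes 0 had an unadjusted p under 0.05 by limma, against 2.88% of all genes. Their median difference was -0.01. Ccnd3, the cyclin D3 gene, differed by -0.22 with an interval of -0.46 to 0.03. Bub1, a spindle checkpoint kinase, differed by 0.98 with an interval of -0.18 to 2.15. Of 19 immediate early genes 0 had an unadjusted p under 0.05 by limma, against 2.88% of all genes, with a median of -0.02. Nr4a2, a nuclear receptor gene, differed by -0.21 with an interval of -0.56 to 0.13. Of 12 interferon response genes 2 had an unadjusted p under 0.05 by limma, against 2.88% of all genes. On average 10 were higher in low strains, against 2619 of all 5623 genes (46.6%). Their median difference was 0.14, against -0.01 over all genes. Irf1, an interferon-induced transcription factor, averaged 8.44 ± 0.42 (SD, n = 7) in low strains and 8.08 ± 0.36 (SD, n = 13) in high strains. Isg20, an antiviral exonuclease, averaged 7.92 ± 0.64 in low strains and 7.45 ± 0.44 in high strains.

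Marker levels of other blood cells overlapped between the classes. The mean over 6 erythroid markers ran from 8.68 through 9.16 to 9.65 in low strains and from 8.41 through 9.10 to 9.80 in high strains. That over 14 neutrophil and monocyte markers ran from 8.79 through 9.02 to 9.41 in low strains and from 8.85 through 8.98 to 9.32 in high strains. The mean over 13 B cell markers ran from 8.26 through 8.34 to 8.80 in low strains. In high strains it ran from 7.90 through 8.30 to 8.54. By the fit 11 of these 13 genes were higher in low strains, against 46.6% of all genes. Ptprc, Dntt and Rag1 are among these 11 but are not confined to B cells. The mean and the count thus do not describe B cells alone. Cd79a, of the B cell receptor, differed by 0.29 with an interval of -0.01 to 0.59.

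For 8 T and NK cell markers the range was 6.74 to 6.91 in low strains and 6.53 to 6.96 in high strains, and for 2 mast cell, basophil and eosinophil markers 6.54 to 7.19 in low strains and 6.27 to 7.34 in high strains. The mean over 4 megakaryocyte markers ran from 7.29 through 7.48 to 8.49 in low strains and from 7.44 through 7.85 to 8.40 in high strains. Among them 1, Vwf, had an unadjusted p under 0.05, against 2.88% of all genes. Vwf, the von Willebrand factor gene, differed by -0.92 (unadjusted limma p = 0.0489, n = 20 strains), by -1.66 in series A, against -0.40 in B. The part of these cells in the differences above was not tested.

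Of 9 tested genes known to differ between the parental strains, none passed and 1, Ctse, had an unadjusted p under 0.05, against 2.88% of all genes. Ctse, the cathepsin E gene, ran from 7.59 through 9.91 to 10.40 in low strains and from 6.96 through 7.73 to 10.18 in high strains by its brightest probe set, a difference of 1.22 ± 0.49 (SE, unadjusted limma p = 0.0224, n = 20 strains). Its other probe sets differed by 0.20 and 0.05. Hars, the histidyl-tRNA synthetase gene, ran from 4.28 to 8.85 in low strains and from 4.15 to 8.88 in high strains. H2-Ea, of the class II molecule H2-E, ran from 4.44 to 9.37 in low strains and from 4.06 to 9.28 in high strains. Both genes thus took almost their full range in either Gnb4 class, but for H2-Ea in low strains this rested on BXD39 alone. The other low strains lay between 7.49 and 9.37 for H2-Ea.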

How the data were processed

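Each array measured sorted marrow cells of 1 strain. The authors' deposited table holds intensities on a linear scale for 12488 probe sets, and the 2% trimmed mean lay between 200.07 and 200.09 on every array. The summarising software is not given in the sources used here. Intensities under 16 were set to 16 (4 on the log2 scale). Classes came from these values. For the tests the 40 arrays were quantile normalized, and 66 control probe sets, that of Gnb4 and probe sets with a mean under the 40th percentile (6.01) were left out, which left 7452, standing for 5623 genes by their brightest probe set. Gene symbols came from the platform table, updated through Entrez identifiers to the RefSeq table of GRCm38.p6. There 10839 of all 12488 probe sets, controls included, found a gene. Of the 12422 probe sets without controls, 10833 had 1 symbol, 396 several and 1193 none. The RefSeq table gave gene order only, as no source names a build.

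Strain means were compared with limma 3.58.1 in R 4.3.3 (class and array series as terms, degrees of freedom 17 residual plus 4.04 prior, adjustment by Benjamini-Hochberg over all 7452), after the script was tested on simulated data. P-values rest on the spread between strain means, and the number of strains and of arrays per strain limits the precision. Differences are low minus high from this fit. Named were Gnb4, its 10 tested neighbours per side and, since none passed, the 10 genes with the smallest p in each direction. Named too were list members with the smallest p and others with a large p, such as Gng12, Gnai2, Cxcr4 and Kit. The members and lists were chosen with earlier results of these data known, so no list is independent evidence. Alternatives changed the normalization, floor, filter, covariate, series, strains, threshold, model and single arrays.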

Additional observations from a re-analysis of the deposited data

Results flagged for a closer look

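Among the 7 low-Gnb4 strains, 3 of 60 probe sets examined had 1 strain far from the other 6, and chance alone gives such a gap in about 1 in 20 groups. H2-Ea was at 4.44 in BXD39, against 7.49 to 9.37 in the other low strains. Gnb5 was at 6.90 in BXD16, against 7.36 to 7.66 in the others. Larp1 was at 9.26 in BXD33, against 8.53 to 8.85 in the others.

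The effect of the Gnb4 class was also compared between array series A and B by an interaction term. None of 7452 probe sets passed by limma (smallest adjusted p 1.00), and 211 had an unadjusted p under 0.05.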

How the results depend on the processing

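No probe set, nearby gene or list member passed an adjusted p of 0.05 by limma in any of 74 alternatives, 40 of them without 1 array, 20 without 1 strain and 1, without BXD9 and BXD16, added after the data were seen. Thresholds of 6.5 and 7.5 and quantile-normalized values moved 0 strains to another class, so these alternatives only repeated the main fit. The 218 probe sets at an unadjusted p under 0.05 became 427 of 12421 when dim probe sets were kept and 132 of 4968 with a filter at the 60th percentile, which test more and fewer probe sets. They numbered 179 to 284 without 1 array and 173 to 325 without 1 strain. Of the nearest genes, 2 of 19 tested had an unadjusted p under 0.05 by limma in series A alone (Zmat3 and Plk4). There 176 of all 7452 probe sets did. In series B alone it was 2 of 20 (Sec62 and Mfn1), against 244 of 7452. With strain as a random block it was 1 of 20 (Ttc14), against 255 of 7452. Without BXD9 and BXD16 it was 1 of 20 (Zmat3), against 198 of 7452. Without 1 array or strain it was 0 to 2.

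The dimmer Mfn1 probe set kept a positive difference in all alternatives but the filter at the 60th percentile, where it was too dim to be tested: 0.42 to 0.47 without 1 array and 0.40 to 0.53 without 1 strain. Of 59 named differences 41 kept their sign in every alternative that gave a value. None of the changes of sign passed the test, and their cause was not tested. In series A alone the difference was 0.14 for Sec62, 0.064 for Cldn11, -0.10 for Fxr1, 0.034 for Anxa5, 0.13 for Ccna2, 0.18 for Gnb2, 0.20 for Gnb5 and 0.21 for Cebpb. In series B alone it was -0.0089 for Mecom, 0.12 for Zmat3, -0.11 for the second Pik3ca probe set, -0.40 for Hars and -0.033 for the third Gnb1 probe set. Without BXD9 and BXD16 it was 0.081 for Ect2, -0.050 for Mecom, -0.047 for Fxr1, 0.11 for Anxa5, 0.048 for Ccna2 and 0.060 for Gnb5. With all 22 strains it was -0.010 for Mecom and -0.050 for Fxr1, with the series not modelled -0.00031 and -0.0031, and with a floor of 32 -0.029 for the second Pik3ca probe set.

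Without 1 array or strain, differences ranged from -0.026 to 0.084 for Actl6a, -0.058 to 0.072 for Anxa5 and -0.17 to 0.013 for Ccna2. They ranged from -0.12 to 0.010 for Cldn11, -0.097 to 0.21 for a dimmer Ctse probe set and -0.064 to 0.069 for Fxr1. The range was -0.049 to 0.11 for the third Gnb1 probe set, -0.12 to 0.027 for Gnb5 and -0.028 to 0.33 for Mccc1. It was -0.038 to 0.068 for Mecom, -0.074 to 0.0069 for Ndufb5 and -0.0998 to 0.095 for the second Pik3ca probe set. No paired analysis was possible because replicate numbers only name the arrays of a strain in accession order. Chip lot and scan date as a block could not be run, since the scanner records held no entry for either.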
